A study of Mus musculus with 10 samples.

Results

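The 10 genes described here encode the core machinery of inflammasome signalling, pyroptosis and necroptosis: Nlrp3, Pycard, Casp1, Casp4, Gsdmd, Casp8, Ripk1, Ripk3, Mlkl and Zbp1. They were chosen by symbol, and each matched exactly 1 of the 54532 genes in the deposited expression table. Messenger RNA came from 10 mouse kidneys, each taken 10 days after a unilateral ureteral obstruction, in which 1 ureter is tied off and the kidney above it becomes inflamed and scarred. Wild-type mice gave 5 libraries and Padi4-knockout mice gave the other 5. All 10 kidneys were obstructed, so none gives the level before injury. The sources used here do not state the strain, age or sex of the mice, the exons removed from Padi4 or the cells that lack it. The labels do not say whether each library came from its own mouse, so the p-values below measure the spread between these libraries.

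In pyroptosis, a sensor such as NLRP3 gathers the adaptor ASC, the product of Pycard, which recruits caspase-1. Caspase-1 then matures interleukin-1 beta and cleaves gasdermin D, whose freed end forms pores in the plasma membrane, and mouse caspase-11, the product of Casp4, cleaves gasdermin D when it meets cytosolic lipopolysaccharide. In necroptosis, RIPK1 or ZBP1 brings in the kinase RIPK3, which phosphorylates the membrane-disrupting protein MLKL, and caspase-8 holds this route in check. Both forms of death release the contents of the cell, and both have been studied in obstructed and ischaemic kidneys. PAD4, the enzyme encoded by Padi4, citrullinates histones, a step by which neutrophils unwind chromatin and expel it as extracellular traps.

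The reads in genes, worked back from the deposited values, came to 15002922 to 16886945 per library. Levels are in FPKM (fragments per kilobase of gene length, divided by a library total already adjusted between libraries). Padi4 was close to the detection floor. It measured 0.0915, 0.342, 0.335, 0.424 and 0.598 FPKM in wild-type kidneys 1 to 5. In those labelled knockout it measured 0.221, 0.152, 0.535, 0.121 and 0.249 FPKM. The difference did not exceed the spread (exact two-sided permutation p = 0.373), so this value does not check the labels, and "knockout" means labelled so. Wild-type 1 stood apart from the other 9 libraries. Mitochondrial genes held 8.11% of its reads, against 3.18% to 5.79% in the others. The summed level of 7 macrophage markers was 459.5 FPKM there, against 818.5 to 1006 FPKM in the others, and that of 5 proximal tubule markers was 772.7 FPKM, against 207.1 to 442.2 FPKM. Differences of the 10 genes and their called relations are therefore given with and without it. All 10 marker lists for the kidney and its leukocytes were detected with no member at 0 in every library. Several leukocyte markers were low: only 3 of 7 neutrophil, 4 of 6 T and natural killer cell and 1 of 4 B cell markers averaged at least 1 FPKM. As these are whole kidneys, fewer cells of a type and less RNA per cell cannot be told apart.

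All 10 genes were expressed above a mean of 1 FPKM, and none differed between the genotypes beyond the spread between kidneys. Limma called 0 of the 10 at a Benjamini-Hochberg adjusted p under 0.05, and 0% of the 13435 genes tested. At an unadjusted p under 0.05 it called 0 of the 10, against 544 genes or 4.05% of all. Limma-voom, run on the reads behind the values, gave 0 of the 10 at either threshold and 529 genes at the unadjusted one. The wild-type and knockout values overlapped for all 10, where 0.744% of all genes had groups that did not overlap, 0.454% with the knockout kidneys lower. Mean log2(FPKM + 1), the scale of every count of direction here, was lower in knockout kidneys for 8 of the 10, against 48.4% of all genes, and higher for Casp4 and Gsdmd. The median log2 difference of the 10 was -0.14, beside 0.0051 for all genes tested. Since some of the 10 vary together across kidneys, their shared direction is not 10 separate observations.

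**Figure D1:**
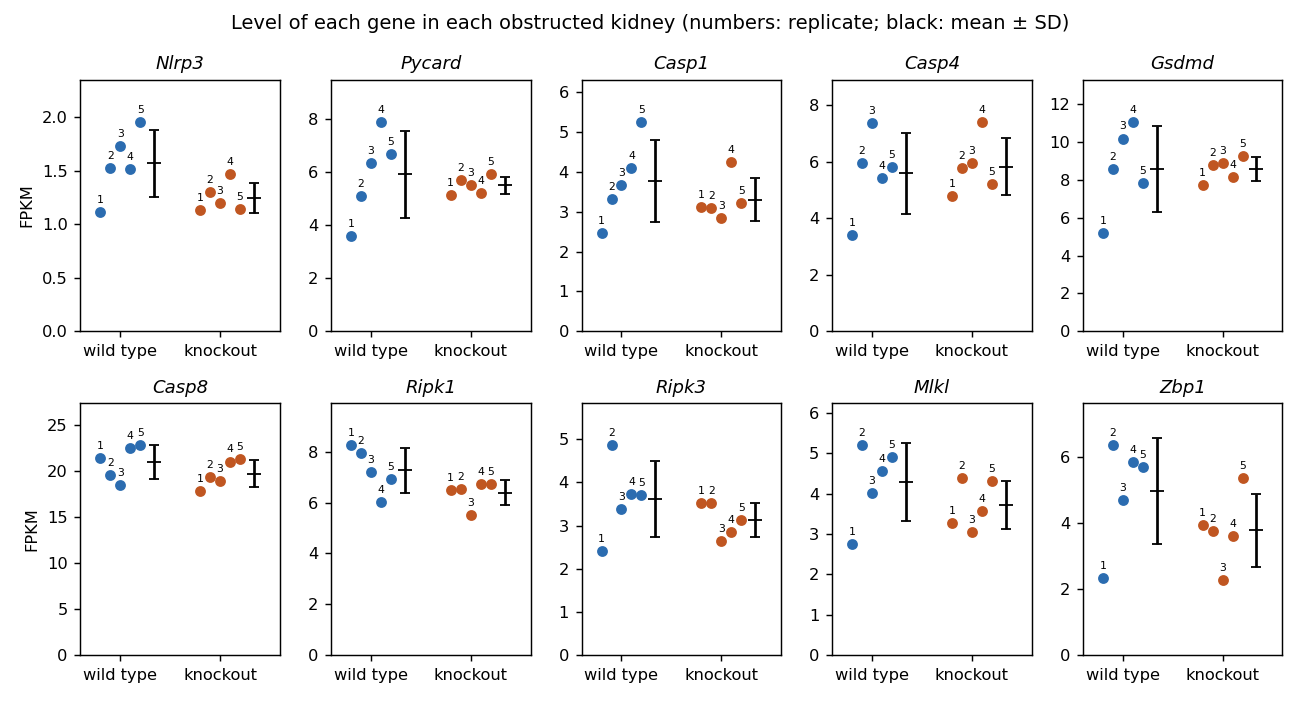
Level of each of the 10 genes in FPKM (vertical axis, from 0) in 5 wild-type (blue) and 5 knockout (orange) obstructed kidneys, with replicate numbers beside the points and the mean ± SD in black. The groups overlap for every gene, and wild-type 1 holds the lowest value of 7 genes.

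Nlrp3, the sensor that assembles the best known inflammasome, was the least abundant of the 10. It lies on chromosome 11 from 59541568 to 59566956 on the plus strand, in coordinates that match GRCm38. Its level was 1.11, 1.52, 1.73, 1.52 and 1.96 FPKM in wild-type kidneys 1 to 5 and 1.13, 1.3, 1.2, 1.47 and 1.14 FPKM in knockout kidneys 1 to 5. Of the wild-type kidneys, 4 lay above every knockout kidney, and wild-type 1 lay below all of them. The means were 1.57 ± 0.313 FPKM (SD, n = 5) in wild types and 1.25 ± 0.14 FPKM (SD, n = 5) in knockouts. The difference in mean log2(FPKM + 1) was -0.18 (SE 0.107, 95% interval -0.42 to 0.05, limma adjusted p = 0.976), and the exact two-sided permutation p of 0.0794 was the smallest of the 10. Each library held 61 to 129 reads of Nlrp3, and limma-voom on those reads, a scale that does not damp low genes, gave -0.32 (unadjusted p = 0.0938). Without wild-type 1 the groups no longer overlapped, as for 2.14% of all genes tested, 1.41% with the knockout kidneys lower. The difference was then -0.25 (SE 0.0996, limma unadjusted p = 0.0275, adjusted p = 0.727).

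Pycard encodes ASC, the adaptor whose specks link sensors to caspase-1, and lies on chromosome 7 from 127989708 to 127993867 on the minus strand. It measured 3.59, 5.09, 6.34, 7.9 and 6.67 FPKM in wild-type kidneys 1 to 5 and 5.13, 5.69, 5.52, 5.22 and 5.91 FPKM in knockout kidneys 1 to 5. The knockout kidneys lay in a narrow band of 5.13 to 5.91 FPKM inside the wild-type range, which ran from wild-type 1 up to wild-type 4. With means of 5.92 ± 1.64 FPKM (SD, n = 5) in wild types and 5.5 ± 0.325 FPKM (SD, n = 5) in knockouts, the log2 difference was -0.06 (SE 0.151, 95% interval -0.39 to 0.27, limma adjusted p = 0.983). It turned to 0.043 without wild-type 4 and reached -0.20 without wild-type 1, with no call in either case.

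Casp1 and Casp4, the inflammatory caspase genes, are neighbours in the same orientation with 1562 bases between them. Casp1 lies on chromosome 9 from 5298517 to 5307265 on the plus strand, and Casp4 on chromosome 9 from 5308828 to 5336783 on the plus strand. Casp1 measured 2.46, 3.32, 3.68, 4.11 and 5.26 FPKM in wild-type kidneys 1 to 5 and 3.11, 3.1, 2.85, 4.24 and 3.22 FPKM in knockout kidneys 1 to 5. Wild-type 5 was the highest, and knockout 4 stood above the other 4 knockout kidneys, which lay between 2.85 and 3.22 FPKM. The means were 3.77 ± 1.03 FPKM (SD, n = 5) in wild types and 3.31 ± 0.542 FPKM (SD, n = 5) in knockouts, and the log2 difference was -0.13 (SE 0.147, 95% interval -0.45 to 0.19, limma adjusted p = 0.976). Leaving out wild-type 1 gave -0.24 and leaving out wild-type 5 gave -0.023. Casp4 measured 3.4, 5.95, 7.37, 5.42 and 5.81 FPKM in wild-type kidneys 1 to 5 and 4.76, 5.78, 5.95, 7.41 and 5.21 FPKM in knockout kidneys 1 to 5. Its highest values, 7.41 FPKM in knockout 4 and 7.37 FPKM in wild-type 3, came from 1 kidney of each genotype. The log2 difference of Casp4 was 0.07 (SE 0.16, 95% interval -0.28 to 0.42, limma adjusted p = 0.981), and it was -0.070 without wild-type 1 and -0.0099 without knockout 4. The ratio of Casp1 to Casp4 in FPKM varied from 0.479 in knockout 3 to 0.906 in wild-type 5. It averaged 0.689 ± 0.163 in wild-type and 0.572 ± 0.0678 in knockout kidneys (SD, n = 5 each).

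Gsdmd encodes gasdermin D, the pore-forming protein cut by both caspases, and lies on chromosome 15 from 75862327 to 75867408 on the plus strand. It measured 5.18, 8.57, 10.2, 11.1 and 7.82 FPKM in wild-type kidneys 1 to 5 and 7.73, 8.79, 8.9, 8.13 and 9.28 FPKM in knockout kidneys 1 to 5. The group means in FPKM were almost equal, at 8.57 ± 2.29 FPKM (SD, n = 5) in wild types and 8.57 ± 0.625 FPKM (SD, n = 5) in knockouts. The log2 difference was 0.03 (SE 0.156, 95% interval -0.31 to 0.38, limma adjusted p = 0.993), so the interval runs from a 0.808-fold to a 1.3-fold ratio of FPKM + 1. Without wild-type 1, by far the lowest library, the difference was -0.11, again with no call (limma adjusted p = 0.825).

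Casp8 encodes the caspase that starts death-receptor apoptosis and restrains necroptosis. It lies on chromosome 1 from 58795374 to 58847503 on the plus strand, and was the most abundant and the steadiest of the 10. It measured 21.5, 19.6, 18.5, 22.5 and 22.8 FPKM in wild-type kidneys 1 to 5 and 17.9, 19.4, 19, 21.1 and 21.4 FPKM in knockout kidneys 1 to 5. The highest library exceeded the lowest by only 1.28-fold, where Zbp1 spanned 2.8-fold. Means were 21 ± 1.85 FPKM (SD, n = 5) in wild types and 19.7 ± 1.48 FPKM (SD, n = 5) in knockouts, and the log2 difference was -0.09 (SE 0.0864, 95% interval -0.27 to 0.10, limma adjusted p = 0.976), the narrowest interval of the 10. It was -0.077 without wild-type 1 and -0.052 without knockout 1.

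Ripk1 encodes the kinase and scaffold that sits below TNF receptor 1, and lies on chromosome 13 from 34002363 to 34037147 on the plus strand. Its level was 8.26, 7.96, 7.19, 6.02 and 6.93 FPKM in wild-type kidneys 1 to 5 and 6.5, 6.52, 5.51, 6.74 and 6.72 FPKM in knockout kidneys 1 to 5. It was highest in wild-type 1, the library that was lowest for 7 other members. All wild-type kidneys but wild-type 4 lay above every knockout kidney. Knockout 3 was the lowest and stood apart from the other 4 knockout kidneys, which lay between 6.5 and 6.74 FPKM. With means of 7.27 ± 0.884 FPKM (SD, n = 5) in wild types and 6.4 ± 0.507 FPKM (SD, n = 5) in knockouts, the log2 difference was -0.16 (SE 0.0922, 95% interval -0.36 to 0.04, limma adjusted p = 0.976). It was -0.11 without wild-type 1, and ranged from -0.11 without knockout 3 to -0.21 without wild-type 4, where the unadjusted p was 0.0336 and the limma adjusted p 0.787. The start of the Ripk1 gene overlaps Serpinb6a on the opposite strand, from 34002363 to 34002794. Also on the opposite strand, Ripk1 overlaps Gm17083, Pycard overlaps Gm45205 and Mlkl overlaps Gm45712. On the same strand, Ripk1 overlaps Gm17084 and Casp8 overlaps Gm37760. The sources used here do not say whether counting used strand, so reads in these stretches cannot be assigned with certainty.

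Ripk3, the kinase that commits a cell to necroptosis, lies on chromosome 14 from 55784995 to 55788865 on the minus strand. It measured 2.41, 4.86, 3.37, 3.74 and 3.71 FPKM in wild-type kidneys 1 to 5 and 3.51, 3.52, 2.65, 2.86 and 3.13 FPKM in knockout kidneys 1 to 5. Wild-type 2 was the highest library and wild-type 1 the lowest, with all 5 knockout kidneys between them. The means were 3.62 ± 0.877 FPKM (SD, n = 5) in wild types and 3.13 ± 0.389 FPKM (SD, n = 5) in knockouts, and the log2 difference was -0.14 (SE 0.132, 95% interval -0.43 to 0.15, limma adjusted p = 0.976). It was -0.25 without wild-type 1 (unadjusted p = 0.0452, limma adjusted p = 0.727) and -0.053 without wild-type 2.

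Mlkl encodes the executioner of necroptosis, which RIPK3 phosphorylates, and lies on chromosome 8 from 111311797 to 111338177 on the minus strand. Its values were 2.75, 5.2, 4.01, 4.56 and 4.92 FPKM in wild-type kidneys 1 to 5 and 3.28, 4.38, 3.05, 3.58 and 4.32 FPKM in knockout kidneys 1 to 5. As for Ripk3, wild-type 2 was highest and wild-type 1 lowest. With means of 4.29 ± 0.965 FPKM (SD, n = 5) in wild types and 3.72 ± 0.602 FPKM (SD, n = 5) in knockouts, the log2 difference was -0.15 (SE 0.141, 95% interval -0.46 to 0.16, limma adjusted p = 0.976). It was -0.27 without wild-type 1 (unadjusted p = 0.0337, limma adjusted p = 0.727) and -0.088 without wild-type 2. The ratio of Mlkl to Ripk3 in FPKM was nearly the same in both groups, at 1.19 ± 0.0956 in wild-type and 1.19 ± 0.166 in knockout kidneys (SD, n = 5 each).

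Zbp1, an interferon-inducible sensor of Z-form nucleic acids that can engage RIPK3, lies on chromosome 2 from 173206612 to 173218923 on the minus strand. It had the largest difference and the widest spread of the 10. It measured 2.32, 6.35, 4.69, 5.84 and 5.69 FPKM in wild-type kidneys 1 to 5 and 3.92, 3.74, 2.27, 3.6 and 5.36 FPKM in knockout kidneys 1 to 5. Knockout 3 and wild-type 1 were close together at the bottom, and the other 4 wild-type kidneys lay above 4 of the 5 knockout kidneys, the exception being knockout 5. The means were 4.98 ± 1.6 FPKM (SD, n = 5) in wild types and 3.78 ± 1.1 FPKM (SD, n = 5) in knockouts. The log2 difference was -0.30 (SE 0.223, 95% interval -0.79 to 0.19, limma adjusted p = 0.976). It was -0.50 without wild-type 1 (SE 0.164, limma unadjusted p = 0.0108, adjusted p = 0.715) and -0.17 without knockout 3, so single libraries moved it more than for any other member.

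Leaving out wild-type 1 gave negative differences for all 10 members, where 48% of all genes tested were lower in knockout kidneys. In that comparison 4 of the 10, Nlrp3, Ripk3, Mlkl and Zbp1, had an unadjusted limma p under 0.05, against 6.82% of all genes. None of the 10 passed the adjusted threshold without it, and 0% of all genes did. Wild-type 1 held the lowest value of 7 members, so leaving it out had to lower their differences. The counts without it are therefore a description and no separate support for a difference. Leaving out any of the other 9 libraries left 7 to 9 members lower in knockout kidneys.

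**Figure D2:**
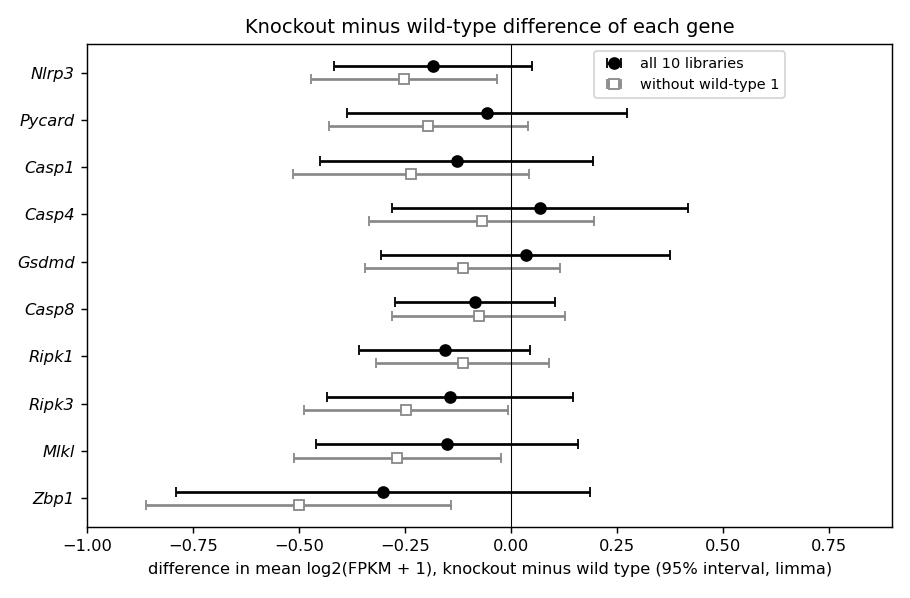
Difference of each gene in mean log2(FPKM + 1), knockout minus wild type (horizontal axis), with 95% limma intervals, for all 10 libraries (filled circles) and without wild-type 1 (open squares). With all libraries every interval spans 0, and without wild-type 1 all 10 estimates lie below 0, those of Nlrp3, Ripk3, Mlkl and Zbp1 with intervals that do not reach it.

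The order of the genes by level could be read because FPKM is per length. Casp8 was the highest in all 10 kidneys, at a mean of 20.4 FPKM ± 1.72 (SD, n = 10), and Nlrp3 the lowest in all 10, at 1.41 FPKM ± 0.284 (SD, n = 10). Between them came Gsdmd at 8.57, Ripk1 at 6.83, Pycard and Casp4 both at 5.71, Zbp1 at 4.38, Mlkl at 4, Casp1 at 3.54 and Ripk3 at 3.38 FPKM, as means over all kidneys. Of the 9 neighbouring steps in this order, 2 exceeded the spread in exact two-sided paired permutation tests over the 10 kidneys: Casp8 over Gsdmd and Ripk3 over Nlrp3 (adjusted p = 0.00879 for each). The others did not pass, with adjusted p from 0.0879 to 0.986. This order depends on the length assigned to a gene. The Casp4 model of 3710 bases is 2.59 times its principal transcript of 1435 bases in GENCODE M21, and that of Zbp1 is 1.77 times. Per length of the principal transcript, an alternative chosen after seeing the data, Casp4 averaged 14.8 FPKM and came second after Casp8, and 7 of the 9 steps passed. The ratio of 1 gene's FPKM between kidneys does not depend on its length, but the added 1 damps log2 differences more where FPKM is low.

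Across kidneys the 10 genes varied in related patterns, seen as shared rows of colour in the map of deviations. Of their 45 pairs, 38 had a positive Pearson r of log2(FPKM + 1) over the 10 libraries, with a median of 0.445. After adjustment over the 45 pairs, 5 passed a two-sided permutation test of r. Of these, 3 joined the necroptosis genes, and they were the only ones of the 45 that also passed by rho. Mlkl and Zbp1 had r = 0.912 (permutation p = 0.00033, adjusted p = 0.0148) and rho = 0.879 (permutation p = 0.00158, adjusted p = 0.034). Ripk3 and Mlkl had r = 0.851 (permutation p = 0.0014, adjusted p = 0.0193) and rho = 0.903 (permutation p = 0.00077, adjusted p = 0.034). Ripk3 and Zbp1 had r = 0.842 (permutation p = 0.00132, adjusted p = 0.0193) and rho = 0.867 (permutation p = 0.00227, adjusted p = 0.034). Without the 2 kidneys farthest from the median of the first gene of each pair these r were 0.805, 0.712 and 0.76, and without wild-type 1 they were 0.873, 0.784 and 0.776. Within the genotypes, as deviations from each group mean, they were 0.901, 0.832 and 0.819.

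**Figure D3:**
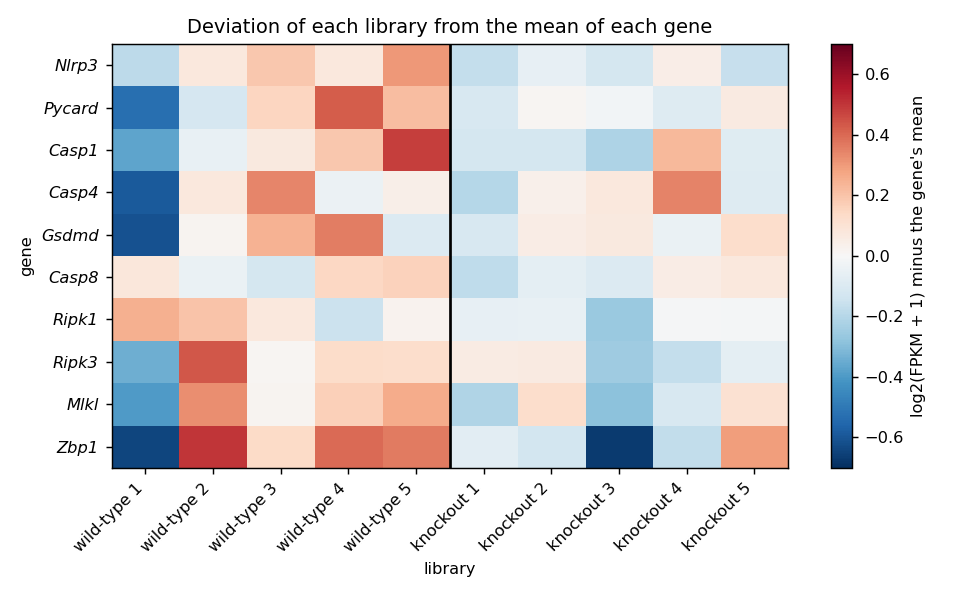
Deviation of log2(FPKM + 1) of each library (columns, the line parts wild type from knockout) from the mean of each gene (rows), in colour from blue (below) to red (above). Wild-type 1 is below the mean for 8 genes and above it for Casp8 and Ripk1, and Ripk3, Mlkl and Zbp1 share their high value in wild-type 2 and low value in knockout 3.

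Among the inflammasome genes, Nlrp3 and Casp1 had r = 0.856 (permutation p = 0.00172, adjusted p = 0.0193) and rho = 0.794 (permutation p = 0.00841, adjusted p = 0.0946). This r was 0.784 without wild-type 5 and wild-type 3, the farthest from the median of Nlrp3, 0.832 without wild-type 1 and 0.893 within the genotypes. Pycard and Gsdmd had r = 0.871 (permutation p = 0.00339, adjusted p = 0.0305), but rho was 0.685 (permutation p = 0.0349, adjusted p = 0.224). Their r was 0.687 without wild-type 1 and 0.888 within the genotypes, but 0.332 without wild-type 1 and wild-type 4, so the relation rests on those kidneys. Ripk1 ran against them, with r = -0.573 with Gsdmd and -0.566 with Pycard (permutation p = 0.0875 and 0.0846, adjusted p = 0.207 for both). Those values were -0.207 and -0.252 without wild-type 1. Between Casp1 and Casp4, the adjacent genes, r was 0.569 with all kidneys and 0.305 without wild-type 1.

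**Figure D4:**
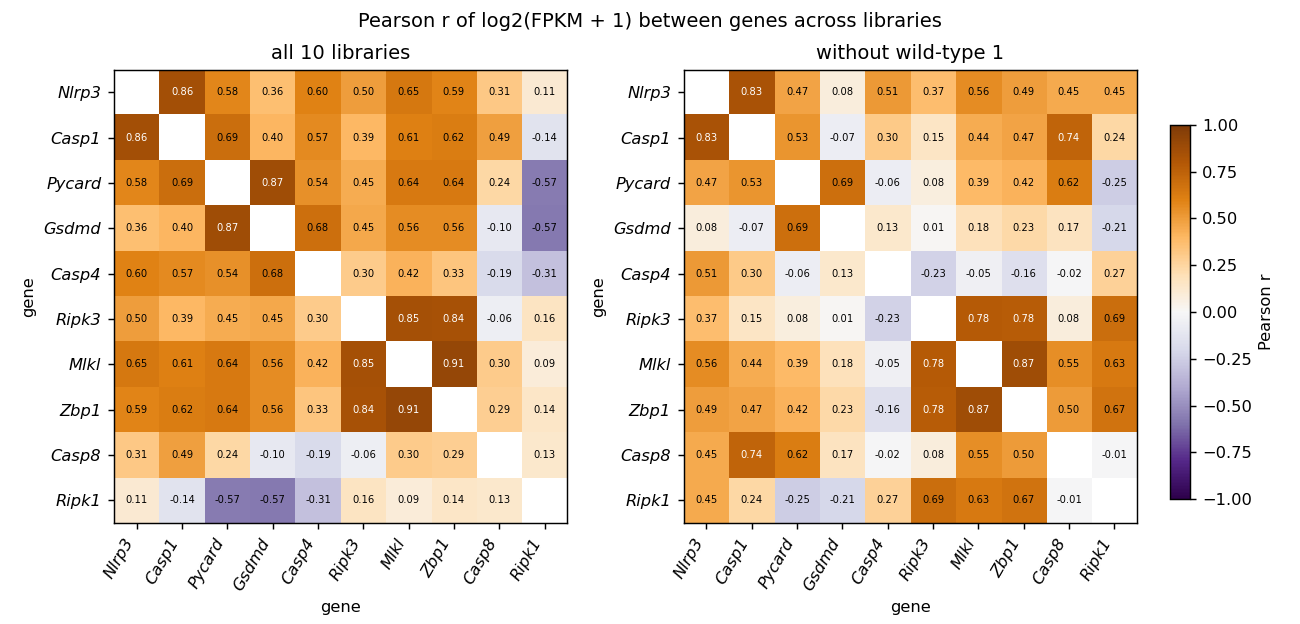
Pearson r of log2(FPKM + 1) between each pair of the 10 genes over all 10 libraries (left) and over the 9 libraries other than wild-type 1 (right), in colour from -1 to 1. Ripk3, Mlkl and Zbp1 form a block in both maps, at 0.842 to 0.912 on the left and 0.776 to 0.873 on the right, and the r of Casp4 with Gsdmd is 0.682 on the left and 0.126 on the right.

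**Figure D5:**
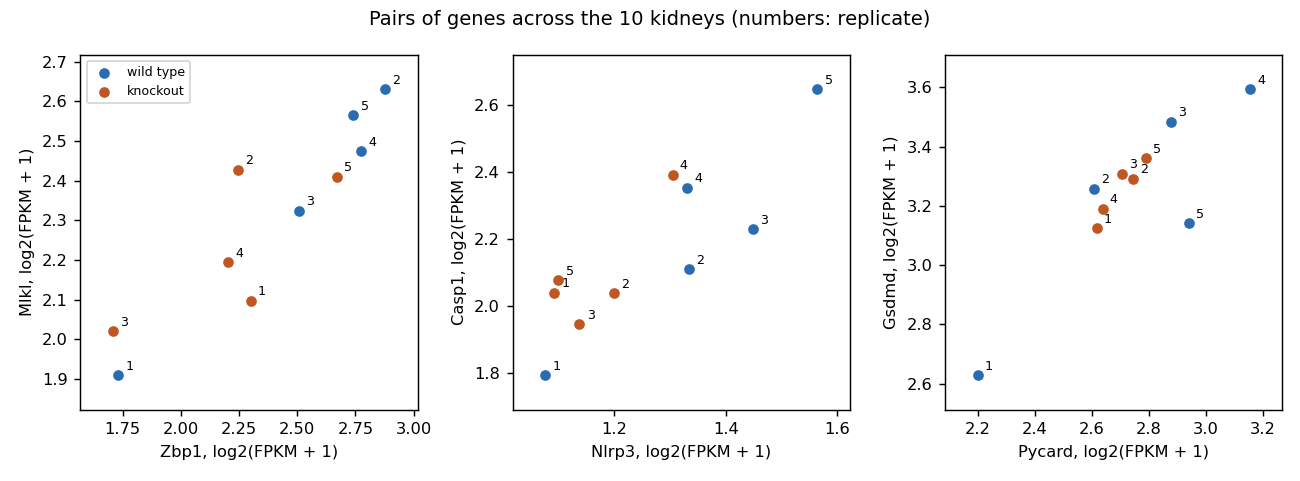
Levels of Zbp1 and Mlkl, of Nlrp3 and Casp1, and of Pycard and Gsdmd as log2(FPKM + 1) in each of the 5 wild-type (blue) and 5 knockout (orange) kidneys, with replicate numbers. The first pair runs together in both genotypes, the second among the wild-type kidneys while among the knockouts only knockout 4 stands high for both genes, and the spread of the third lies mostly between wild-type 1 and wild-type 4.

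Levels of the 10 genes were set beside markers of leukocytes and of the proximal tubule in 40 relations, of which 2 passed a permutation test of r after adjustment. Nlrp3 followed the mean of 6 T cell and natural killer cell markers (r = 0.931, permutation p = 8e-05, adjusted p = 0.0032). Its rho was 0.903 (permutation p = 0.00078, adjusted p = 0.0312), and r was 0.822 without wild-type 5 and wild-type 3, 0.926 without wild-type 1 and 0.912 within the genotypes. That last r pools both groups, and none was computed for the knockout kidneys alone. The summed level of those markers was 5.14 to 19.6 FPKM in wild-type and 4.72 to 6.28 FPKM in knockout kidneys, with 10.9 FPKM or more in every wild-type kidney but wild-type 1. Its part in the Nlrp3 difference was not tested. Pycard followed the macrophage markers (r = 0.835, permutation p = 0.00237, adjusted p = 0.0474), with rho = 0.794 (permutation p = 0.0087, adjusted p = 0.17). That r was 0.612 without wild-type 1, the library lowest in these markers, 0.709 without wild-type 1 and wild-type 4, and 0.857 within the genotypes. For Nlrp3 and the macrophage markers r was 0.507 (permutation p = 0.119, adjusted p = 0.216). The neutrophil markers summed to 12.1 to 17.6 FPKM in wild-type and 5.66 to 11.3 FPKM in knockout kidneys, and no member passed the adjusted threshold with them (smallest permutation p = 0.048, for Ripk1). The r with the neutrophil markers depended on wild-type 1. Without it r was 0.825 for Mlkl, 0.68 for Zbp1 and 0.66 for Ripk3, against 0.397, 0.316 and 0.3 with all kidneys. Within the genotypes r was 0.235, 0.0206 and 0.0465 with all kidneys, to be set beside 0.397, 0.316 and 0.3. It was not computed within the genotypes without wild-type 1. The neutrophil sums were not tested between the genotypes, and the part of genotype in these r was not tested. No p was computed for the values without wild-type 1 or within the genotypes.

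The genes most like each member were sought among 12151 tested genes with a gene symbol, by Pearson r of log2(FPKM + 1) over the 10 kidneys, given as a description. Zbp1 was most like Igtp (r = 0.972) and Gbp3 (r = 0.953), which encode interferon-induced GTPases, and Mlkl most like Stat2 (r = 0.952), a transducer of interferon signals, and Tbc1d9 (r = 0.945). The nearest to Ripk3 were Trim14 (r = 0.976) and Ciita (r = 0.931), the transactivator of MHC class II genes. Nlrp3 was nearest to Ptprc (r = 0.967), which encodes the leukocyte antigen CD45, and Cxcr6 (r = 0.949), a chemokine receptor. Casp1 was nearest to Zfp729b (r = 0.979), a zinc-finger gene with close copies whose reads are uncertain, and B2m (r = 0.957), the light chain of MHC class I. For Pycard they were Lsp1 (r = 0.947) and H2-DMa (r = 0.947), for Gsdmd the chemokine gene Cxcl16 (r = 0.977) and Emp3 (r = 0.957), and for Casp4 Antxr2 (r = 0.963) and Rgs5 (r = 0.957), a marker of pericytes. Ripk1 was nearest to Nup98 (r = 0.967) and Morc2a (r = 0.951), and Casp8 had the loosest matches, Tbce (r = 0.88) and Rgs2 (r = 0.866). Without wild-type 1 these r lay between 0.861 and 0.977. Each gene was picked from 12151 for its high r over these same kidneys, so neither set of r is support for a relation. How high the best r would be by chance was not computed.

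RefSeq gives start-site windows of 300 bases in GRCm38.p6, from 250 bases before to 50 after the start, for 8 of the 10 members, not for Gsdmd and Zbp1. They were searched on both strands for 3 motifs: the core of the interferon-stimulated response element (GAAA, any 2 bases, GAAA), the gamma-activated site (TTCNNNGAA) and a loose NF-kB motif (GGG, any 5 bases, CC). These letters stand in 3.44%, 8.3% and 50.8% of all 32851 windows. Among the 8 members, which have 11 windows, 1 held the first, 1 the second and 4 the third in any window. These counts are by member, while the shares are by window. The pair of Ripk3 and Mlkl, which varied together, is shown because neither window holds any of the 3. The windows of Pycard and Casp8 hold none either, so this is not particular to the pair. Ripk1 and Casp4 are shown because they hold the most matches. Another window of Ripk1, chr13:34002113-34002412, holds no match. Capitals mark matches. In Ripk1 gamma-activated site letters begin 108 and 11 bases before the start, the nearer one overlapping interferon response letters that begin 5 bases before it, and NF-kB letters begin 140 bases before it. In Casp4 a run of overlapping NF-kB matches begins 93 bases before the start. A match in so short a motif describes the letters alone.
Ripk3, minus strand, chr14:55788808-55789107: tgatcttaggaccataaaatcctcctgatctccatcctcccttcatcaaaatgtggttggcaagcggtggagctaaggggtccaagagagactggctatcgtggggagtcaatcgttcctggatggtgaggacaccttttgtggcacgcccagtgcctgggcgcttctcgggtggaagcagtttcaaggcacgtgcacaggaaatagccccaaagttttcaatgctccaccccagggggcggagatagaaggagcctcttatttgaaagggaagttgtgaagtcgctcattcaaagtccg
Mlkl, minus strand, chr8:111338156-111338455: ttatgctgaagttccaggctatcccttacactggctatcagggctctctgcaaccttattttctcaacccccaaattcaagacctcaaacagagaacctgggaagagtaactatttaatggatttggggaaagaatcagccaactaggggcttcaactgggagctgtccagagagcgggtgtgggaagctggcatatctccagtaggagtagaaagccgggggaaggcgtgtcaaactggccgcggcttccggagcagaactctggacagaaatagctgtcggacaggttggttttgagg
Ripk1, plus strand, chr13:34002624-34002923: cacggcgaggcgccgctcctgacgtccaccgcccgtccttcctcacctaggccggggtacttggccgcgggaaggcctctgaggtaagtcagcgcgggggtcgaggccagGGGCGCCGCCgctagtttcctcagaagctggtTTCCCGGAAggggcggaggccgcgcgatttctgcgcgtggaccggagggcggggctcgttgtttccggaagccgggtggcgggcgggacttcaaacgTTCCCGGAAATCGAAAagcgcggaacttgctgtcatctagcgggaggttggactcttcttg
Casp4, plus strand, chr9:5308599-5308898: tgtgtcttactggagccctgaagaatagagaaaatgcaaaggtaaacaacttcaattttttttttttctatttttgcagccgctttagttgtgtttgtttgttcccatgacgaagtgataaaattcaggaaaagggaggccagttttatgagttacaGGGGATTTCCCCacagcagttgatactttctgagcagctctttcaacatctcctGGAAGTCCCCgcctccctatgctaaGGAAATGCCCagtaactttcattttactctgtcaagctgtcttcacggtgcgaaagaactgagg

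Genes around the 10 in the same pathways did not pass the adjusted threshold either, in any of 6 lists. Of 17 other inflammasome sensors and regulators, 9 were tested, 3 with lower and 6 with higher means in knockout kidneys, and a median log2 difference of 0.02. Serpinb1a, an inhibitor of neutrophil serine proteases that also restrains caspase-1, measured 14.5 to 19.3 FPKM in wild-type and 12.8 to 14.2 FPKM in knockout kidneys. Those ranges did not overlap, as for 0.744% of all genes tested, and its log2 difference was -0.25 (limma unadjusted p = 0.016, adjusted p = 0.976). Nlrc4, a sensor of bacterial flagellin and secretion systems, measured 1.32 ± 0.256 FPKM (SD, n = 5) in wild types and 1.69 ± 0.206 FPKM (SD, n = 5) in knockouts. Nlrp6, a sensor best known from the intestine, measured 6.2 FPKM ± 1.96 and 7.84 FPKM ± 0.961 (SD, n = 5 each). Aim2, a sensor of cytosolic DNA, measured 1.12 FPKM ± 0.39 and 1.26 FPKM ± 0.233 (SD, n = 5 each).

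Gasdermins, the rupture factor Ninj1 and the caspase-1 substrates had 6 of 11 members tested, 4 with lower and 2 with higher means, and a median log2 difference of -0.09. Il1b, the cytokine that caspase-1 matures, measured 3.91, 4.74, 4.43, 4.27 and 6.1 FPKM in wild-type kidneys 1 to 5 and 2.44, 3.11, 3.15, 2.99 and 3.95 FPKM in knockout kidneys 1 to 5. Only knockout 5 reached the lowest wild-type value. Its log2 difference was -0.46 (SE 0.12, limma unadjusted p = 0.00253, adjusted p = 0.976), larger than that of any of the 10 members. Il18, the other cytokine cut by caspase-1, differed by -0.06 and measured 2.83 ± 1.19 FPKM (SD, n = 5) in wild types and 2.58 ± 0.819 FPKM (SD, n = 5) in knockouts, on 15 to 67 reads per library. Gsdme, another pore-forming gasdermin, differed by 0.02. Among the close copies on the gasdermin C locus, whose reads are uncertain, Gsdmc2 differed by -0.11 and Gsdmc3 by -0.27.

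Around Ripk1 and Casp8, 24 of 25 genes of the death receptors and the TNF receptor complex were tested, 13 with lower and 11 with higher means. Their median log2 difference was -0.04. Tab1, a partner of the kinase TAK1, differed by 0.24 (limma unadjusted p = 0.0349, adjusted p = 0.976), Fadd, the adaptor that recruits caspase-8, by 0.17 and Sharpin, a subunit of the linear ubiquitin ligase, by 0.13. Tnf itself measured 1.07 ± 0.396 FPKM (SD, n = 5) in wild types and 1.41 ± 0.462 FPKM (SD, n = 5) in knockouts.

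Interferon-driven partners of Casp4 and Zbp1 had a lower mean log2(FPKM + 1) in knockout kidneys for 11 of 11 genes, against 48.4% of all genes tested, with a median log2 difference of -0.20. An unadjusted p under 0.05 was found for 1 of them, against 4.05% of all genes. Whether the 11 vary independently of each other was not tested, so the count is a description. That gene was Gbp7, a guanylate-binding protein of a family with close copies. It measured 10.4, 13.4, 10.4, 9.37 and 12.3 FPKM in wild-type kidneys 1 to 5 and 7.82, 8.86, 5.7, 8.86 and 8.66 FPKM in knockout kidneys 1 to 5. All wild-type values were above all knockout values, as for 0.454% of all genes tested, and the log2 difference was -0.44 (SE 0.128, limma adjusted p = 0.976). Gbp5, which also promotes NLRP3 assembly, differed by -0.37 and Adar, the RNA-editing enzyme that restrains ZBP1, by -0.23, both with overlapping groups.

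All 11 listed genes of the ESCRT-III machinery, which repairs membranes pierced by gasdermin D or MLKL, were tested. Mean log2(FPKM + 1) was lower in knockout kidneys for 6 and higher for 5, with a median log2 difference of -0.0013 and differences from -0.09 for Pdcd6ip to 0.16 for Chmp1a. Chmp2a differed by 0.08. The 7 genes of apoptotic caspases and Apaf1 had 5 lower and 2 higher means, with a median log2 difference of -0.07. Casp2 differed by -0.14 and Casp6 by 0.15.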

How the data were processed

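The labels' protocols name TRIzol for the RNA and sequencing of mRNA, and HISAT2 2.0.5 is listed in the submitters' processing notes. The sources used here state neither the counter, its use of strand nor the build. The deposited table has a single unlabelled value for each gene and kidney. These were taken as FPKM made by the authors, because value times gene length came out as whole reads (within 0.01 reads) for 100% of values above 0. Library totals had already been scaled between libraries in the deposited values. Of the gene identifiers, 99.8% occur in GENCODE M21 (GRCm38), and 98.3% of the matched ones have the same coordinates.

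Limma 3.58.1 in R 4.3.3 was fitted with a variance trend on log2(FPKM + 1) to the 13435 genes averaging at least 1 FPKM. Genotype was the only term, p-values were adjusted by Benjamini-Hochberg over all of these genes, and the script was tested on simulated data. The scale understates the change of low genes. Correlations used 100000 permutations. The members and lists were chosen with earlier results of these data known. By rule, all members, up to 3 genes of each list with the smallest p, Il1b, Il18, Tnf, Aim2, Nlrc4, Gsdme and Padi4, and the 2 genes most like each member are named. Markers were used as list sums or means. 1 gene that this rule names is not reported here. Protein sequences were not used here.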

Additional observations from a re-analysis of the deposited data

Results flagged for a closer look

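In 40 groups of 5 values, for the 10 genes and 10 marker lists, 3 held a value far from the other 4, where chance gives about 2, or 1 in 20. Casp1 in knockout kidneys was 4.24 FPKM in knockout 4, with the other 4 at 2.85 to 3.22 FPKM. Ripk1 in knockout kidneys was 5.51 FPKM in knockout 3, with the others at 6.5 to 6.74 FPKM. The macrophage markers in wild-type kidneys had a mean log2(FPKM + 1) of 5.28 in wild-type 1, the lowest of the 5.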

How the results depend on the processing

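No member and no gene passed the adjusted threshold under a pseudocount of 0.1, no filter, a mean of at least 5 FPKM, upper quartile scaling, an equal sum of FPKM, limma-voom, the replicate number as a block, a threshold of 0.1 or with any 1 library left out. At an unadjusted p under 0.05, 544 genes and 0 members passed. Of the 10 members, 8 were lower in knockout kidneys under each of these, except for 3 of the 5 tested at a mean of at least 5 FPKM, a filter that removes the other members, and 7 to 10 with 1 library left out. The median member difference ranged from -0.22 to -0.08 with 1 library left out. Differences reversed for Casp4 (-0.070 to 0.16), Gsdmd (-0.11 to 0.13) and Pycard (-0.20 to 0.043), and for no other member.

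With the replicate block, the counts were 0 genes, 0 members and 8 members lower, with a median of -0.14. Same-numbered libraries did not deviate together in every pair (correlations 0.306, 0.11, -0.124, -0.344 and -0.0396). Wild-type 1 and wild-type 2 were each most like the knockout of the same number, and wild-type 3, 4 and 5 were not. Such correlations cannot exclude pairing and the labels do not state it, so whether the numbers pair the kidneys stays unknown. With the block 435 genes had an unadjusted p under 0.05.

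All 10 members in wild-type kidneys had a larger SD than in knockout kidneys, as did 58.9% of all genes tested. Without wild-type 1, a comparison chosen after seeing the data, 7 members and 48.3% of all genes did. Depth limits Nlrp3 and Casp1 most, with as few as 61 and 50 reads in a library.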
